A study of Drosophila melanogaster with 6 samples.

Results

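This report describes Gcn5 binding sites on the autosomal arms 2L, 3L and 3R of Drosophila melanogaster that were found in Kc cells with and without CP190 RNAi and were not found in S2 cells. The sites were chosen by whether a Gcn5 peak was present in each of 3 deposited peak lists. All peaks on these arms were pooled, and peaks that overlapped by at least 1 bp were merged into regions. A region was included when it held a peak of the Kc control list and a peak of the Kc CP190 RNAi list but none of the S2 list. This gave 669 sites among 4608 regions, or 14.5% (exact 95% interval 13.5 to 15.6%).

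The study asked, per its title and design, how far the chromatin binding of Gcn5 depends on CP190. Gcn5 was immunoprecipitated with 5 µg of a rabbit polyclonal antibody and the DNA sequenced (ChIP-seq) in 3 libraries. These were Kc cells given double-stranded RNA against GFP as the control, Kc cells given double-stranded RNA against CP190, and S2 cells given the GFP control RNA, with 90 µg of RNA per 6000000 cells. The series has no Gcn5 library of S2 cells with CP190 RNAi, and the 3 input libraries were not analysed here. Kc and S2 are lines derived from Drosophila embryos and are studied as blood cell-like lines. No allele or transgene is named for either line, and how much CP190 was left after RNAi is not given in the sources used here.

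Gcn5 is a histone acetyltransferase of the coactivator complexes SAGA and ATAC, which acetylate histones at active promoters and enhancers. CP190 is a BTB-domain and zinc finger protein of Drosophila insulators, where it acts with DNA-binding proteins such as CTCF, Su(Hw) and BEAF-32. It is also found at many promoters of active genes.

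Each condition had 1 library, so the values below are descriptions without p-values, and the sites of a library are not replicates of it. On the 3 arms the Kc control list held 2873 peaks, the CP190 RNAi list 2274 and the S2 list 3134. Read depth is unknown for all 3, so a missing peak means no call in that list and says nothing of whether Gcn5 was bound there at a lower level. The peak score is the authors' own and is read only within its list, as a value or as a percentile among the peaks of that list on the 3 arms. The lowest score on these arms was 50.08 in the control list and 50.03 in the S2 list. Names of the S2 sequences are written differently from those of the Kc lists, so a difference in processing and one between the cell lines cannot be told apart. Positions are 1-based on dm3. Genes and DNA sequences at the sites are not given, because no dm3 genome or annotation was used here.

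The presence of a site in each list is the rule itself, so the following shares only place the class. Of the 2820 regions with a control peak, 55.1% had a CP190 RNAi peak and 36.0% had no S2 peak. Of the 2210 regions with a CP190 RNAi peak, 52.9% had no S2 peak. The 669 sites were 65.8% of the 1016 control regions without an S2 peak (62.8 to 68.8%). Among the 1804 control regions with an S2 peak, 885 had a CP190 RNAi peak (49.1%, 46.7 to 51.4%). All intervals cover counting error only.

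Every arm held such sites. There were 197 on 2L, 188 on 3L and 284 on 3R, which were 23.8% (20.9 to 26.8%), 21.0% (18.3 to 23.8%) and 25.9% (23.4 to 28.6%) of the control regions of those arms. The intervals overlap. Per Mb up to the farthest peak, 2L had 8.56 sites, 3L 7.66 and 3R 10.2. Median control widths were alike, at 1473, 1467 and 1436 bp. In 75 of 77 windows of 1 Mb there was at least 1 site, with a median of 8. The window with the most sites was 3R 25000001 to 26000000, with 17 among 61 regions (27.9%, 17.1 to 40.8%). Windows with 16 sites started at 2L 6000001, 2L 8000001, 2L 20000001, 3L 1000001 and 3R 5000001. Sites were at most 25.4% of the regions in those windows, and the interval of each overlaps that of the window with 17. By share, among windows with at least 30 regions, the highest was 28.0%, at 3R 23000001 to 24000000, with 14 sites among 50 regions.

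By their medians, the sites were wide but low-scored among the Gcn5 regions of control Kc cells. Their control peaks had a median width of 1448 bp (order-statistic 95% interval 1404 to 1503 bp, quartiles 1180 and 1931 bp). Regions found in all 3 lists were wider, with a median of 1633 bp (1559 to 1707 bp). Control regions that had an S2 peak but no CP190 RNAi peak were narrower, at 1119 bp (1105 to 1139 bp), as were those found in the control list alone, at 1133 bp (1095 to 1183 bp). The control scores fell in another order. Their median was 108 for the sites described here (103 to 116), 203 for regions in all 3 lists (190 to 215), 167 for control regions with an S2 peak and no CP190 RNAi peak (155 to 181), and 75.7 for control regions alone (71.3 to 80.5). Width and score are part of what a peak caller uses, so these values describe the classes and test nothing.

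Split at the medians of all 2820 control regions, 1308 bp and a score of 141, the sites were most frequent where the peak was wide and the score low. They were 669 of all 2820 control regions (from 21.0% on 3L to 25.9% on 3R) and 242 of the 581 wide, low-scored ones (41.7%). Among the 828 wide, high-scored regions they were 181 (21.9%), and 456 were regions of all 3 lists. Among the 829 narrow, low-scored regions they were 189 (22.8%). Narrow, high-scored regions held the fewest of them, 57 of 582 (9.79%). That corner was mostly occupied by control regions with an S2 peak and no CP190 RNAi peak, with 354 (60.8%). In all, 63.2% of the sites had a wide control peak, against 25.8% of the control regions with an S2 peak and no CP190 RNAi peak, and 35.6% against 56.9% had a high score. Wide control peaks were found at 71.6% of regions of all 3 lists and 33.1% of control regions alone, and high scores at 67.1% and 15.9%.

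**Figure D1:**
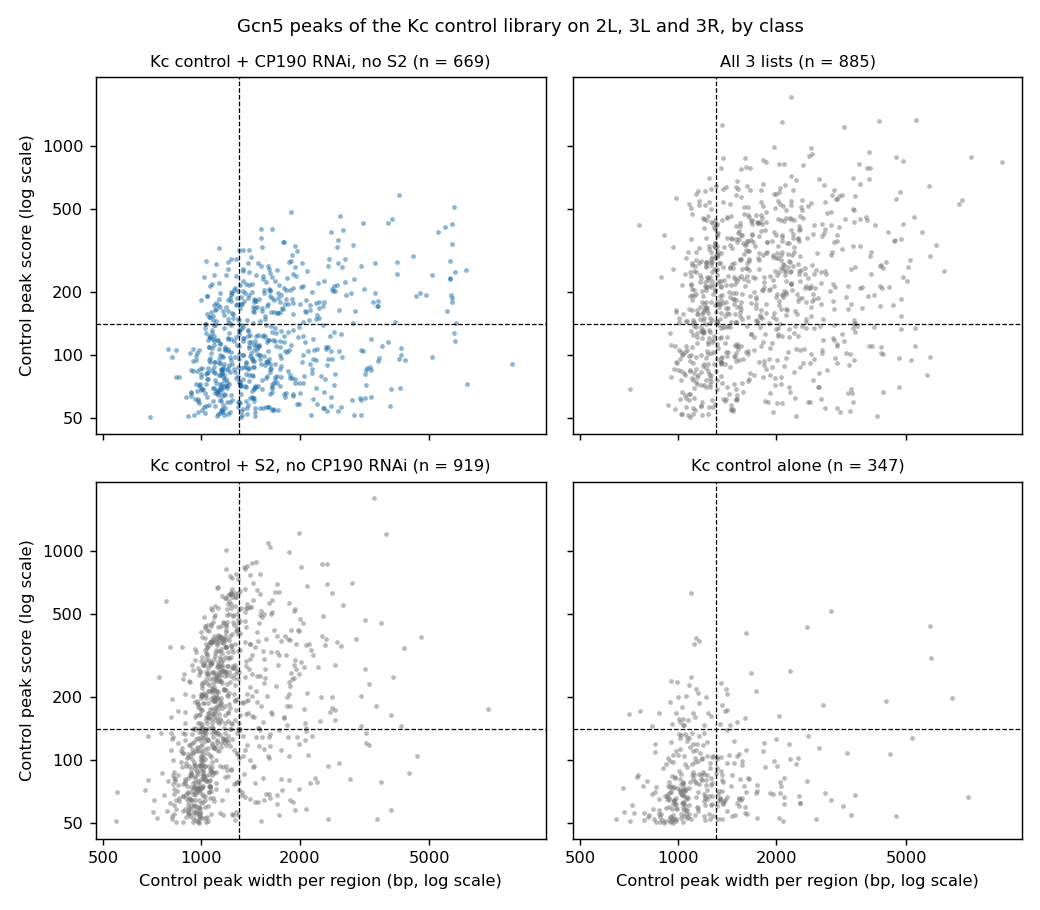
Control peak score against the summed control peak width of each region, both on log scales, for the 4 classes of region with a Kc control peak; each point is 1 region and dashed lines are the medians of all 2820 control regions. Of the 669 sites with both Kc peaks and no S2 peak, 242 lie below and right of the dashed lines and 189 below and left. Above the score line, 181 of them lie to the right and 57 to the left. The 919 control regions with an S2 peak and no CP190 RNAi peak form a narrow column near 1119 bp that reaches higher scores.

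Peak extents were similar in both Kc lists, which is partly set by the rule, as the peaks had to meet. Of the 669 sites, 658 consisted of 1 control peak and 1 CP190 RNAi peak (98.4%, 97.1 to 99.2%). The CP190 RNAi peak covered a median of 93.3% of the control peak (quartiles 85.6 and 98.7%). Its centre lay a median of 57.5 bp from that of the control peak, and within 100 bp at 458 of the 658 sites (69.6%, 65.9 to 73.1%). At 643 sites the overlap was at least 50% of both peaks. Both edges matched within 100 bp at 258 sites (39.2%, 35.5 to 43.1%). In the 808 regions of all 3 lists with 1 peak in each Kc list, the median cover was 91.4%. Centres lay within 100 bp at 64.9% of those regions and both edges matched at 33.5%.

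CP190 RNAi peaks were somewhat narrower. The median ratio of CP190 RNAi width to control width was 0.962 (0.952 to 0.974), with quartiles of 0.871 and 1.02, and the peak was narrower at 440 of 658 sites (66.9%, 63.1 to 70.5%). The left edge moved inward by a median of 19 bp and the right edge by 21.5 bp. Regions of all 3 lists gave a ratio of 0.929 (0.921 to 0.942), over 808 regions with 1 peak in each Kc list. A ratio under 0.5 was seen at 10 sites and one over 1.5 at 8. The largest narrowing was at chr3L:16702116-16706086, from 3971 to 1277 bp (ratio 0.322). The largest widening was at chr2L:15745116-15749092, from 1729 to 3977 bp (ratio 2.30). These extremes were chosen after their values were seen. Peak width also depends on depth and enrichment, whose part in these ratios was not tested.

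Scores were less alike between the lists than widths. Across the 658 sites the Spearman correlation was 0.85 for width and 0.38 for score. In the 808 regions of all 3 lists it was 0.80 and 0.29. Each set of points shares its 2 libraries, and these are descriptions across sites. In the control list 57 of the 669 sites (8.52%) lay in the highest score quartile and 200 (29.9%) in the lowest. In the CP190 RNAi list 180 (26.9%) lay in the highest quartile and 140 (20.9%) in the lowest. The median percentile was 39.0 in the control list (36.2 to 42.0) and 55.1 in the CP190 RNAi list (51.2 to 58.8). The lists differ in length and content, so the percentiles do not show a change in binding. Of the 57 sites in the highest control quartile, 44 were also in the highest CP190 RNAi quartile and none in the lowest. Of the 200 sites in the lowest control quartile, 70 were also lowest after CP190 RNAi and 21 were in its highest quartile.

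**Figure D2:**
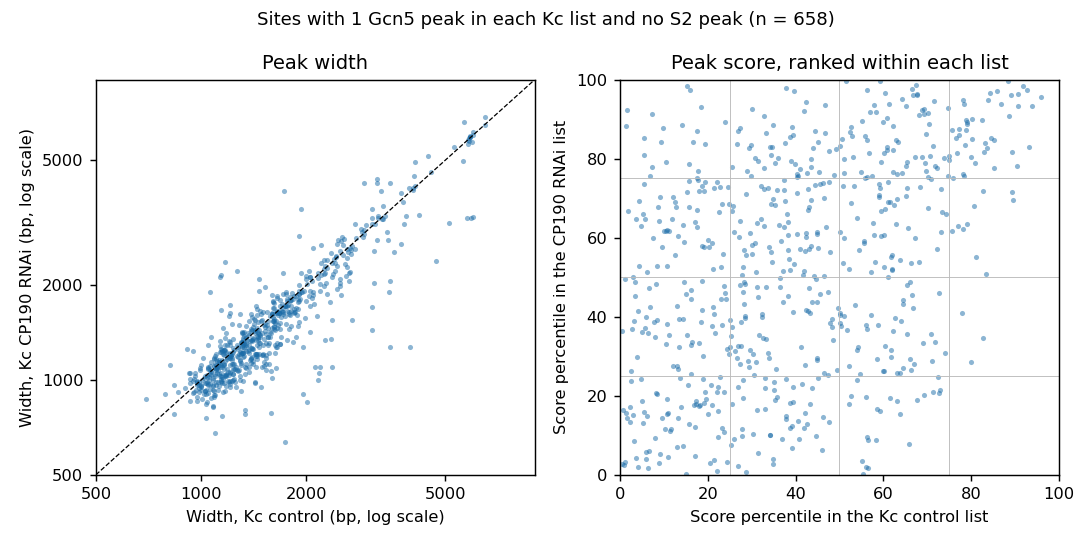
Peak width in base pairs on log scales (left, dashed line at equal width) and score percentile within each list (right, grey lines at the quartiles) in the Kc control and CP190 RNAi libraries, for the 658 sites with 1 peak in each list. Widths follow the diagonal with a median ratio of 0.962, whereas score percentiles are spread over most of the square.

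The highest control score among the sites was 582.55, at chr3R:27043933-27048011. That is percentile 96.0 of the control list, and the CP190 RNAi peak there had a score of 360.81 (percentile 95.7). The control peak was 4028 bp wide and the CP190 RNAi peak 4072 bp, and the nearest S2 peak lay 1622 bp away. The next site, chr3R:8745574-8751523, had a control score of 510.20 and a control peak of 5937 bp, of which the CP190 RNAi peak covered the right-hand 3268 bp. It stood far from any S2 peak, at 54273 bp. Next came chr3R:25550136-25552014, a narrower site of 1879 bp with a control score of 485.42. Its CP190 RNAi score of 206.45 was at percentile 83.0.

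The sites at chr3L:9368833-9371491 (control score 464.31), chr2L:22167496-22171341 (448.68), chr3L:16042555-16046473 (431.03) and chr3R:2910495-2913622 (428.08) followed. Ranks 8 to 10 were held by chr3L:16676787-16682713 (423.68), chr3L:9684115-9691974 (408.54) and chr3R:11233491-11235038 (401.15). All 10 had a percentile of at least 89.3 in the control list. In the CP190 RNAi list their percentiles ranged from 69.5 to 98.4. Their control peaks were wide, with a median of 3794 bp and a range of 1521 to 5937 bp.

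Sites with the highest CP190 RNAi scores were mostly other ones: 1 site, chr2L:22167496-22171341, was in both groups of 10. The highest CP190 RNAi score was 779.53, at chr3L:9372801-9378312, whose control score was 388.56. It lies 1309 bp from the site at chr3L:9368833-9371491 named above, which in turn lies 251 bp from a region of all 3 lists at chr3L:9363643-9368581. The second was chr3R:7783555-7787795, with a CP190 RNAi score of 733.16 (percentile 99.6) and a control score of 172.76 (percentile 59.2). An S2 peak lay 390 bp from it. It was followed by chr3R:19880597-19884809, with a CP190 RNAi score of 698.75 and a control score of 143.70. At chr3R:2231027-2234182 these scores were 517.22 and 207.22.

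Control scores were low at 2 of the 10. The site chr3R:14222136-14225949 had a control score of 68.88 (percentile 15.3) and a CP190 RNAi score of 477.11 (percentile 98.3). At chr2L:21218001-21222479 the values were 69.59 (percentile 15.8) and 429.72 (percentile 97.5). Both sites were wide in both lists, with control and CP190 RNAi widths of 3814 and 3121 bp at the first and 4066 and 4450 bp at the second. The remaining sites of the 10 were chr3L:7903744-7906102, chr2L:13548535-13551110 and chr3L:7361066-7364221, with CP190 RNAi scores of 454.04, 432.95 and 424.94. Control peaks of these 10 sites were 2210 to 5294 bp wide, all above the median of 1448 bp of the class.

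**Figure D3:**
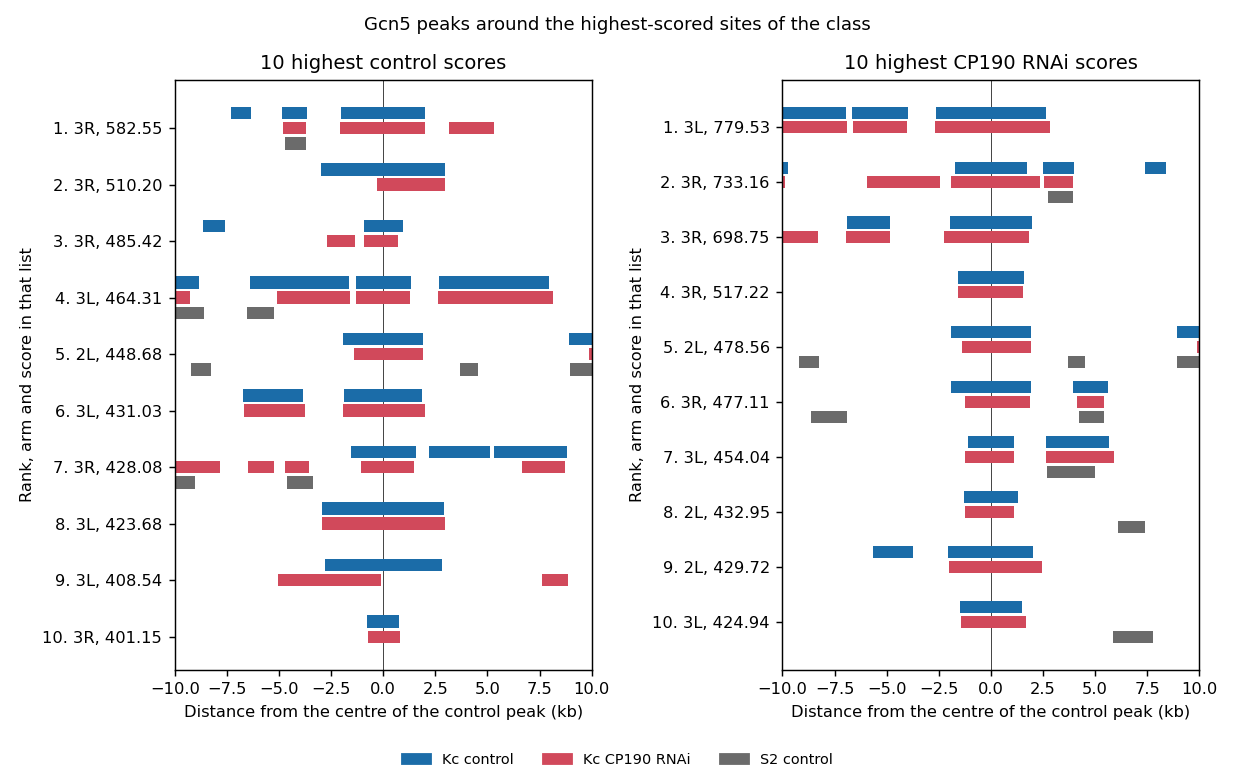
Gcn5 peaks of the 3 libraries around the 10 sites with the highest control score (left) and the 10 with the highest CP190 RNAi score (right), in kb from the centre of the control peak; bars are peak extents and labels give rank, arm and score. Kc control and CP190 RNAi bars share most of their extent at each site apart from the second and ninth on the left. S2 bars lie beside those sites that have an S2 peak inside the window shown. Sites farther from S2, such as the second on the left at 54273 bp, have no S2 bar.

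A group of very wide sites had nearly the same width. In the Kc control list 15 sites had peaks between 5500 and 6100 bp, of which 7 were on 2L, 6 on 3L and 2 on 3R. In the 600 bp below this band there were 3 sites and in the 600 bp above it 2. The band was chosen after the widths were seen. The sequence under these sites was not examined, so whether they lie in repeated sequence, where reads cannot be placed at a single position, was not tested. Control peaks of that width made up 2.24% of the sites (1.26 to 3.67%), 5 of the 885 regions of all 3 lists (0.565%, 0.184 to 1.31%), 2 of 347 control regions alone and 0 of the 919 control regions with an S2 peak and no CP190 RNAi peak (exact upper bound 0.401%). Measured on S2 peaks, 10 of the 885 regions of all 3 lists, 3 of the 919 and 0 of the 1132 regions found in S2 alone had such a width.

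At 3 of the 15 sites the control peak was 5874 bp wide, to the base. These were chr2L:14803620-14809551, chr3L:14461165-14467137 and chr3L:16676787-16682713, with CP190 RNAi peaks of 5917, 5973 and 5927 bp. Both edges of the control and CP190 RNAi peaks matched within 100 bp at 8 of the 15. At 3 others the CP190 RNAi peak was shorter by a similar amount. Its width was 3282 bp at chr2L:17819614-17825554, 3268 bp at chr3R:8745574-8751523 and 3302 bp at chr2L:22201030-22207041. There the left edge lay 2659, 2682 and 2673 bp inside the control peak, while the right edge differed by at most 173 bp. Control scores of the 15 ran from 117 to 510 with a median of 231, and CP190 RNAi scores from 57.4 to 323 with a median of 154. At 10 of the 15 the nearest Gcn5 region of any list was over 5 kb away, compared with 227 of all 669 sites. The site with the farthest S2 peak of the whole class, chr3L:24235277-24241168, was one of them, at 211463 bp.

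**Figure D4:**
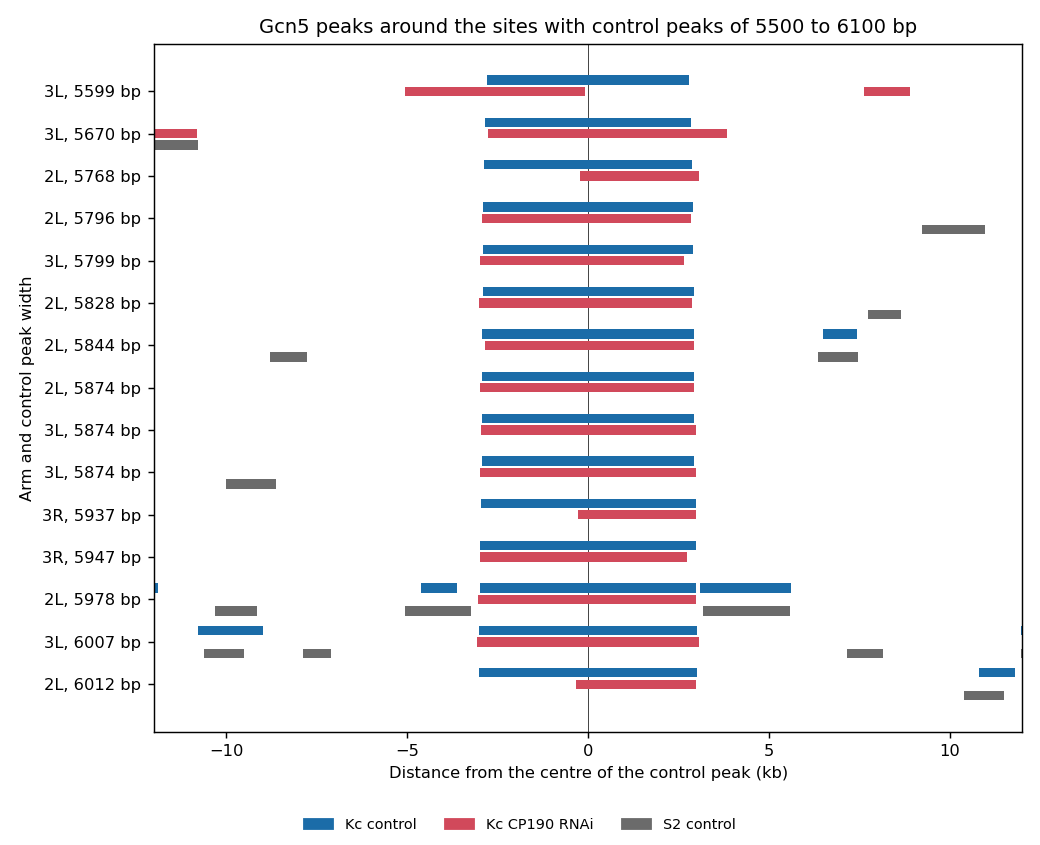
Gcn5 peaks of the 3 libraries around the 15 sites whose Kc control peak was 5500 to 6100 bp wide, in kb from the centre of that peak and ordered by its width. Control and CP190 RNAi bars coincide at most sites, and at 3 sites the CP190 RNAi bar covers only the right-hand 3268 to 3302 bp.

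The 5 widest sites were chr3L:626942-635921, chr3L:9684115-9691974, chr2L:16527538-16534585, chr3L:4118579-4125245 and chr3L:14747589-14754092. The first spanned 8980 bp and held 1 control peak of 8930 bp with a score of 90.52 over 3 CP190 RNAi peaks, the highest of which had a score of 307.05. Another 10 sites also had more than 1 peak in a list. Of these, 7 had 1 control and 2 CP190 RNAi peaks, 2 had 2 control peaks and 1 CP190 RNAi peak, and 1 had 2 of each. Control peaks over 3000 bp wide were found at 65 sites (9.72%), and under 1000 bp at 36 (5.38%).

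S2 peaks were often close by, although none touched the sites. The median gap to the nearest S2 peak was 7444 bp (6700 to 8248 bp), with quartiles of 3056 and 15936 bp. An S2 peak lay within 10 kb of 412 sites (61.6%, 57.8 to 65.3%) and within 1 kb of 55 (8.22%, 6.25 to 10.6%). The same shares were 59.9% and 8.36% for the 347 control regions alone, and 60.9% and 8.22% for the 499 regions of CP190 RNAi alone. Widths and scores had overlapping intervals at short and long distances. The median control width was 1392 bp (1241 to 1513 bp) for the 55 nearest sites and 1450 bp (1391 to 1574 bp) for the 257 sites with no S2 peak within 10 kb, and the median control scores were 110 (86.2 to 122) and 111 (99.3 to 123). CP190 RNAi scores had medians of 112 and 119 with overlapping intervals.

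The S2 regions near the sites differed in make-up from all S2 regions. For the 412 sites with an S2 peak within 10 kb, the nearest S2 region was found in all 3 lists in 185 cases (44.9%, 40.0 to 49.8%), whereas 28.6% of all 3093 S2 regions are of that class. It was an S2 region with a control peak but no CP190 RNAi peak in 66 cases (16.0%, 12.6 to 19.9%), against 29.7% of all S2 regions. S2 regions with a CP190 RNAi peak alone made up 43 cases (10.4%, 7.66 to 13.8%), against 5.08%. These shares were not computed for other classes, so the make-up may not be particular to the sites. Taking the nearest region of any class, one of all 3 lists was nearest for 20.2% of the sites. It was 23.8% for regions of CP190 RNAi alone and 23.1% for control regions alone. A region with control and S2 peaks but no CP190 RNAi peak was nearest for 8.82%, 11.6% and 16.7%.

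The closest neighbours on the arms, of any class, more often held CP190 RNAi peaks than S2 peaks, which the rule sets in part. A neighbour that is itself a site of the class holds a CP190 RNAi peak and no S2 peak by the rule. For 186 of the 669 sites (27.8%, 24.4 to 31.4%) the nearest Gcn5 region was another site of the class, which makes up 14.5% of all regions. With peaks of a score of 100 or more, this share was 16.2% when the threshold was set in the Kc lists and 18.1% when it was set in all lists. The share of the class among all regions was not computed at those thresholds, so these values cannot be set against 14.5%. Other classes also had their own class as nearest region more often than its share of all regions, with 28.0% against 19.2% for regions of all 3 lists, 32.8% against 19.9% for control regions with an S2 peak and no CP190 RNAi peak, and 36.3% against 24.6% for regions of S2 alone. A nearest region with a CP190 RNAi peak, of any class, was found for 461 sites (68.9%, 65.2 to 72.4%), and such regions were 48.0% of the total. For 186 of these 461 it was another site, fixed by the rule to hold that peak. It was a region of all 3 lists for 135, of CP190 RNAi alone for 110 and of CP190 RNAi and S2 for 30. A nearest region with an S2 peak was found for 316 (47.2%, 43.4 to 51.1%), against 67.1% of the total. That share was also below 67.1% for regions of CP190 RNAi alone, at 52.7% (48.2 to 57.2%), and control regions alone, at 58.2% (52.8 to 63.5%). Regions of all 3 lists stood at 64.5% (61.3 to 67.7%) and the remaining classes at 68.2 to 79.6%. Regions with control and S2 peaks but no CP190 RNAi peak were the nearest for 59 sites (8.82%, 6.78 to 11.2%), against 19.9%. The class was not alone in having neighbours with a CP190 RNAi peak more often than 48.0%. This share was 65.3% for the 499 regions of CP190 RNAi alone (61.0 to 69.5%), 61.1% for the 157 regions of CP190 RNAi and S2 (53.1 to 68.8%) and 59.4% for control regions alone (54.0 to 64.6%). Of the 885 regions of all 3 lists, 531 had such a neighbour (56.7 to 63.2%). It was below 48.0% for control regions with an S2 peak and no CP190 RNAi peak, at 31.0% (28.0 to 34.1%), and for regions of S2 alone, at 34.5% (31.8 to 37.4%). Neighbours share the library in which they were called, so a regional difference in depth and one in binding cannot be told apart.

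**Figure D5:**
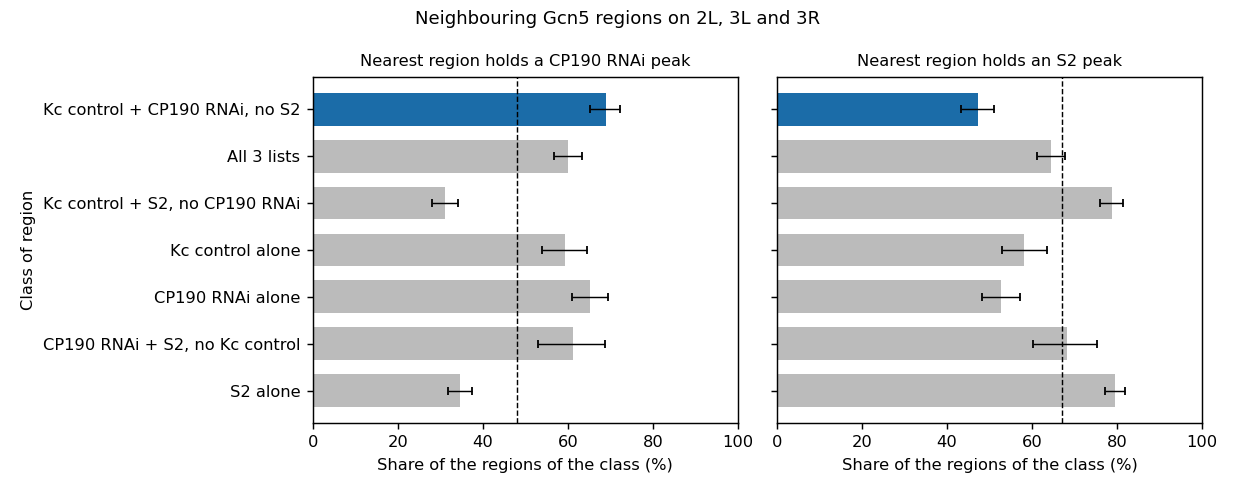
Share of the regions of each class whose nearest Gcn5 region on the same arm holds a CP190 RNAi peak (left) or an S2 peak (right); bars are percentages, error bars exact 95% binomial intervals, dashed lines the share of such regions among all 4608. The sites described here (blue) stand at 68.9% on the left, above the line at 48.0%, and at 47.2% on the right, below the line at 67.1%. The rule sets both values in part, as neighbours of the same class hold a CP190 RNAi peak and no S2 peak.

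Sites also followed each other directly along the arms. In all, 293 of the 669 (43.8%) belonged to runs of 2 or more consecutive sites with no other region between them, and 376 stood alone. The share in runs was 44.6% for the 885 regions of all 3 lists and 53.1% for the 919 control regions with an S2 peak and no CP190 RNAi peak. It was 16.4% for the 347 control regions alone and 54.7% for the 1132 regions of S2 alone. For the 499 regions of CP190 RNAi alone it was 32.5%, and for the 157 of CP190 RNAi and S2 11.5%. These classes differ in size, and the share in runs that size alone would give was not computed. Runs of 2 numbered 97, runs of 3 numbered 17 and longer ones 11. Sites in runs had a median control width of 1447 bp (1382 to 1514 bp) and those alone 1452 bp (1400 to 1533 bp). Their control scores had medians of 116 (105 to 128) and 105 (97.0 to 111). The gap to the nearest S2 peak was longer for sites in runs, with a median of 10476 bp (9462 to 12359 bp) against 5498 bp (4744 to 6318 bp), as a run by its definition has no S2 region inside it.

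The longest runs held 6 sites each. One spanned 43.8 kb at 2L 2987176 to 3030988. Its control peaks were 989 to 1503 bp wide, with control scores between 67.88 and 120.62 and CP190 RNAi scores between 64.5 and 184.09. The smallest gap from any of the 6 to an S2 peak was 8308 bp. The other spanned 47.0 kb at 3R 15685659 to 15732647, with control widths of 1118 to 2359 bp. Control scores there ran from 56.32 to 201.15 and CP190 RNAi scores from 56.71 to 208.25. Of the 9 runs of 4 sites, 6 were on 3R. The run at 3L 16004307 to 16046473 had the highest CP190 RNAi scores among them, 212.59 to 390.27, with control scores from 61.16 to 431.03, and was singled out after its values were seen.

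Some sites lay near the limits of the rule. A control score under 60 was found at 61 of the 669 sites and a CP190 RNAi score under 60 at 58. Among all peaks on the 3 arms, 60.04 stood at percentile 8.35 of the control list. A score of 60 stood at percentile 12.9 of the CP190 RNAi list, so scores this low are not particular to the sites. Both scores were under 100 at 157 sites and both at or above 100 at 259. The lowest control scores were 50.54 at chr2L:16356123-16357450, 50.57 at chr3L:11124910-11125780 and 50.92 at chr2L:10267796-10269272. The lowest CP190 RNAi scores were 50.04 at chr3R:23524947-23526663, 50.13 at chr3L:5649648-5651177 and 50.30 at chr3L:7321412-7322598. Just inside the limit set by S2, the sites chr2L:5943169-5944482, chr3R:25682710-25683950 and chr3L:833817-836180 lay 22, 42 and 51 bp from an S2 peak. Farthest from S2 after the 3L site already named were chr3R:24938058-24939561, at 71238 bp, and chr3L:6407160-6408197, at 69624 bp.

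Other regions narrowly failed the rule. A region on 3R, 19758915 to 19762161, had both Kc peaks and met an S2 peak by 37 bp. The region at 2L 22872658 to 22875384 met one by 227 bp, and that at 3R 8327361 to 8337714 by 546 bp. The last had a control score of 837.09 and a CP190 RNAi score of 3195.85, both above every site described here. Regions at 3R 7566615 to 7568727, 2L 14348329 to 14349268 and 3L 9402958 to 9404731 were left out by S2 peaks with scores of only 50.12, 50.21 and 50.30. In 11 places a control peak and a CP190 RNAi peak without S2 overlap lay within 1 kb of each other but did not meet. The smallest gaps were 49 bp on 3R, 192 bp on 3L and 234 bp on 3R. The first of these was between a control peak at 9084491 to 9085534 with a score of 146.23 and a CP190 RNAi peak at 9085584 to 9086423 with a score of 62.62.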

How the data were processed

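Gcn5 ChIP-seq peak lists of 3 libraries were used, 1 per condition, grouped by their titles. The submitters' processing notes name the build dm3 and, with no version or role, HOMER, MACS, Bowtie and bedtools. The sources used here do not give peak thresholds or the part played by inputs. The deposited value is the authors' score per peak, with no normalization between libraries stated. The files hold no counts, so depth is unknown.

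The prefix of the Kc sequence names was removed. Regions, medians with exact order-statistic 95% intervals and shares with exact (Clopper-Pearson) 95% binomial intervals were computed with Python 3.11.15, numpy 2.4.6, pandas 2.3.3 and scipy 1.17.1, and figures with matplotlib 3.10.9. Where a region held several peaks of a list, its score is the highest and its width the sum. The number of regions and of members was checked with bedtools 2.31.1, and the merging was tested on simulated data. Starts were taken as 0-based. A gap is the number of bases between regions.

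The members, lists and comparisons were chosen with earlier results of these data known. Named sites are the 10 highest by each Kc score, the 5 widest, the 3 lowest by each score, the 3 nearest to and farthest from S2 peaks, the nearest failures of the rule, and the windows with the most sites and longest runs. No test between conditions was possible with 1 library each. Sequence content was not computed, since no dm3 genome was used here.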

Additional observations from a re-analysis of the deposited data

How the results depend on the processing

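The 7 results (the number of sites, the share of control regions without S2 that were kept, median control width, share with 1 peak in each Kc list, share with an S2 peak within 10 kb, share with another site as nearest region, and median control score percentile) were recomputed under 9 alternatives. Of 63 values, 44 stayed within the interval of the reported one, or within 1.5 times for the count, and 19 moved. A score of 100 or more in all lists left 365 sites, a kept share of 54.7%, a median width of 1641 bp, an S2 peak within 10 kb for 46.6% and another site as nearest region for 18.1%. The same threshold in the Kc lists alone left 259 sites, with 54.2%, 1645 bp, 99.2% with 1 peak each and 16.2% with another site as nearest. Merging at 50% reciprocal overlap gave a kept share of 61.6%, 100% with 1 peak each and 65.8% with an S2 peak within 10 kb; merging across gaps of up to 200 bp gave 96.9% with 1 peak each. For lists of equal length, each whole list was cut to its 4228 highest-scored peaks before the 3 arms were taken. Lengths on the arms were therefore not made equal. This cut gave a kept share of 72.8%, 54.4% with an S2 peak within 10 kb and a median percentile of 35.0. Without 3R there were 385 sites, and 23.6% had another site as nearest. Requiring no S2 peak within 1000 bp moved none of the 7. The cause was not tested. Leaving out 2L or 3L left all 7 within those limits. Sequence content was not run, and no replicate could be left out. No paired analysis was possible because there is 1 library per condition. The unknown depth limits every absence of a peak.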
